A study of Oryza sativa with 12 samples.

Results

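A small group of rice transcripts rose strongly in 25 °C axes between the arrays labelled 0H and those labelled 4H and changed little or fell over the same labels in axes of seed held at 40 °C. The members were chosen by their group means in these arrays: they are the probe sets whose mean signal at 4H exceeded that at 0H by at least 2.5 on the log2 scale at 25 °C, changed by at most 0.5 at 40 °C, and reached at least 6 at 4H after 25 °C. The limit of 300 members was not reached. The rule chose 26 of 57258 probe sets (0.0454%), control probe sets left out. They stand for 18 protein-coding genes, and 3 of them have no gene listed in the annotation used here. All 26 passed the filter for tested probe sets (above log2 4 in at least 3 arrays); 17 would pass by the other arrays alone, and the rest passed through the 25 °C 4H arrays that the rule required to be high.

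The 12 arrays (Affymetrix Rice Genome Array) measured total RNA of the embryonic axis of Oryza sativa, cultivar Nipponbare, from mature seed, and fell into 4 groups of 3 replicates. These were 4H and 0H of seed held at 40 °C and 85% relative humidity, and 4H and 0H of control seed held at 25 °C and the same humidity, for 14 days by the protocol and 15 by the description. All seed, control seed included, first spent 3 days at 25 °C and 85% relative humidity and finally 3 days at 25 °C and 32%. The treatment is a controlled deterioration, which mimics seed ageing; the labels tie the 40 °C storage to a loss of vigour, and a condition at 45 °C was not analysed here. The labels do not define 0H and 4H, and they do not say whether replicates came from separate seed lots, so p-values cover only how far these samples differ within a group, and that spread may be technical. In bulk RNA, fewer cells of a type and less RNA per cell cannot be told apart.

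In a germinating seed the embryonic axis takes up water, makes new transcripts and proteins and then elongates. Elongation needs the cell wall to yield. Expansins loosen the links between wall polysaccharides, and xyloglucan endotransglucosylases (XTH) cut and rejoin xyloglucan chains. Auxin promotes such growth: Aux/IAA proteins repress the auxin response factors (ARF) that act on auxin genes, auxin triggers the breakdown of those repressors, and many Aux/IAA and GH3 genes are themselves switched on by auxin. GH3 enzymes join auxin or jasmonate to amino acids.

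Some arrays stood apart in their control probe sets. Replicate 3 of 25 °C 4H read 6.82 for 18S rRNA, against 11.04 and 11.06 in the other arrays of its group, and 7.59 for the mean of the hybridization spike-ins, against 9.32 and 8.93. Replicate 3 of 40 °C 0H read 7.87 for 18S rRNA, against 10.17 and 10.97. The mean of the poly-A spike-ins stood highest in replicates 1 and 2 of 40 °C 0H, at up to 9.01, against 2.69 to 6.45 in all other arrays. The 3′ minus 5′ signal of Gapdh, which grows where RNA is degraded or copied short, averaged 2.77 in 40 °C 4H, 3.66 in 40 °C 0H, 2.34 in 25 °C 4H and 2.24 in 25 °C 0H axes. That of actin averaged 2.95 in 40 °C 4H, 3.33 in 40 °C 0H, 2.97 in 25 °C 4H and 2.44 in 25 °C 0H axes, so it was higher at 4H than at 0H at 25 °C and lower at 40 °C. That of ubiquitin differed little, at −0.60 in 40 °C 4H, −0.52 in 40 °C 0H, −0.62 in 25 °C 4H and −0.66 in 25 °C 0H axes. The part of these measures in the members' values was not tested. Of the embryo markers 6 of 7 lay above log2 4 in all groups; the exception was OSH1, a homeobox gene of the shoot meristem, at 3.78 in 40 °C 4H, 6.47 in 40 °C 0H, 5.79 in 25 °C 4H and 6.37 in 25 °C 0H axes. Of the endosperm markers 6 of 8 did, and these split. In 40 °C and 25 °C 0H axes, in that order, PROLM25 averaged 9.27 and 7.98, GBSS1 8.76 and 6.46, and RA14 10.61 and 9.17. GLUB-5 averaged 7.32 and 7.19 there, GLUA-2 6.42 and 6.39, and GLUA-1 5.82 and 5.83. In 40 °C and 25 °C 4H axes PROLM25 averaged 8.65 and 8.43, GBSS1 7.81 and 7.04, and RA14 10.01 and 9.79. GLUB-5 averaged 6.71 and 7.54 there, GLUA-2 6.11 and 6.94, and GLUA-1 4.80 and 6.06. Of the aleurone markers 2 of 5 did. The log2 signals of all 5 added up to 23.5 in 40 °C 4H, 27.4 in 40 °C 0H, 26.5 in 25 °C 4H and 24.8 in 25 °C 0H axes. Such a sum of log2 values weights each gene alike and is no measure of total signal. These alpha-amylase genes moved in both directions. AMY1.1 read 8.95 in 40 °C 4H, 4.62 in 40 °C 0H, 9.91 in 25 °C 4H and 4.08 in 25 °C 0H axes. AMY1.3 also averaged higher at 4H than at 0H at both temperatures. AMY1.2, AMY1.4 and AMY1.5 averaged lower at 4H at both, with AMY1.5 below log2 4 in all groups. Of 5 leaf markers 4 lay below log2 4 in all groups, and RBCS read 3.25 in 40 °C 4H, 5.51 in 40 °C 0H, 3.12 in 25 °C 4H and 4.98 in 25 °C 0H axes. The part of other cell types in the members' values was not tested.

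At 40 °C the members' change from 0H to 4H lay between −0.76 and 0.41 on the log2 scale, with a median of 0.16. At 25 °C they rose by 2.57 to 5.61, with a median of 2.96, as deposited. In 16 members the 25 °C 0H arrays did not all lie below log2 4, and the rise was 2.69 to 3.87, or 6.45-fold to 14.6-fold. In the other 10 they did, and counted from log2 4 the rise was at least 2.01 to 3.32. Here and below, a change that begins or ends below log2 4 is given as deposited, and its size is not resolved. The change at 40 °C minus the change at 25 °C ran from −5.20 to −2.20, with a median of −3.17, against a median of −0.12 over the 17650 probe sets tested. Because the rule used the means of all 4 groups, these values describe the members and carry no test. The median SD between replicates, pooled over the groups, was 0.21 on the same scale.

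Losing the whole rise was uncommon among transcripts that rose at 25 °C. In all 875 probe sets rose by at least 2.5 at 25 °C and reached log2 6 there, and the members are 2.97% of them. The change of the 875 at 40 °C had a median of 3.66 and a lower quartile of 2.41, and 642 of them (73.4%) also rose by at least 2.5 at 40 °C. In 222 the changes at both temperatures lay within 0.5 of each other. With the temperatures exchanged, the same rule chose 25 probe sets, about as many as the members.

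**Figure D1:**
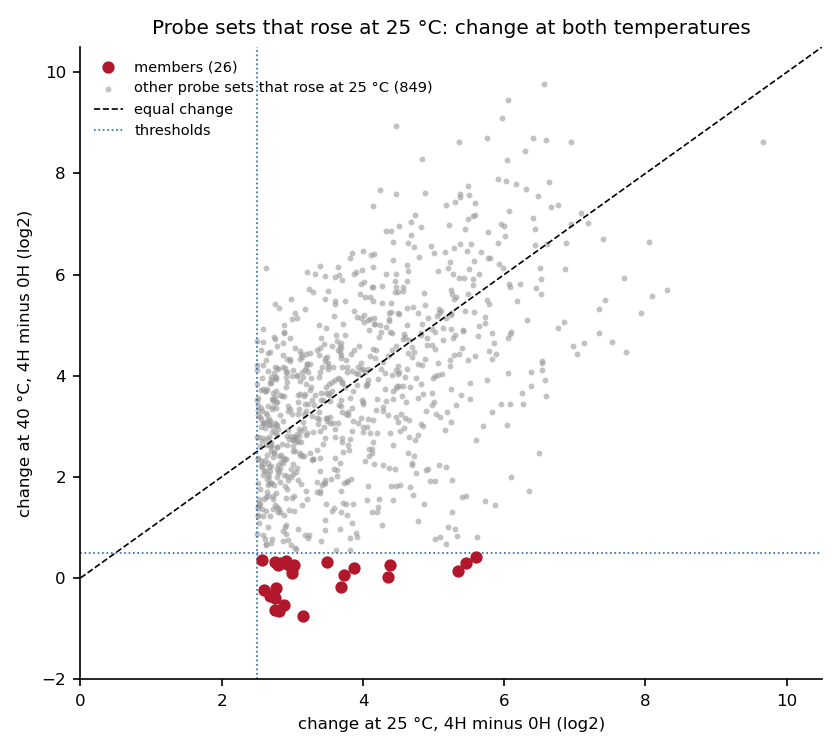
Change from 0H to 4H on the log2 scale at 40 °C (vertical axis) and at 25 °C (horizontal axis) of the 875 probe sets that rose by at least 2.5 at 25 °C and reached log2 6, with members in red, the others in grey, the rule's thresholds dotted and equal change dashed. The 26 members form the lower edge of a wide cloud whose median change at 40 °C was 3.66.

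Only 2 of the 18 genes carry a short name, a beta-expansin and an Aux/IAA gene. EXPB6 (LOC4349347), a beta-expansin, read 5.12, 5.13 and 5.12 in 40 °C 4H axes, against 5.16, 5.08 and 4.61 in 40 °C 0H axes. In the control seed it read 8.17, 8.27 and 7.70 in 25 °C 4H axes, against 5.18, 5.02 and 4.95 in 25 °C 0H axes. The 25 °C 4H arrays thus lay above all others, and the remaining 9 arrays overlapped. The change was 0.17 (SE 0.16) at 40 °C and 2.99 (SE 0.16) at 25 °C, a 7.97-fold rise, and the difference of the changes was −2.82 (SE 0.22).

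IAA30 (LOC4352721), an Aux/IAA gene, read 4.74, 5.18 and 5.38 in 40 °C 4H axes, against 4.78, 4.85 and 4.78 in 40 °C 0H axes. It read 7.78, 7.89 and 7.48 in 25 °C 4H axes, against 5.10, 4.37 and 5.19 in 25 °C 0H axes. Replicates 2 and 3 of 40 °C 4H lay slightly above their 0H arrays and replicate 1 did not, while the 25 °C 4H arrays stood clear of the rest. The change was 0.30 (SE 0.20) at 40 °C and 2.83 (SE 0.20) at 25 °C, a 7.12-fold rise.

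Relatives of these genes behaved in more than one way. Of those named here and below, EXPB3, GH3.4, EXLA3 and LOC4334069 were picked for a change like that of the members. Their p-values for the difference of changes therefore describe them and carry no test. EXPB3, a beta-expansin close to EXPB6 in gene order, had the members' pattern below their level: 1.41 ± 0.22 in 40 °C 4H, 1.35 ± 0.29 in 40 °C 0H, 4.48 ± 0.27 in 25 °C 4H and 1.22 ± 0.21 in 25 °C 0H axes (SD, n = 3). Its change at 40 °C was lower than that at 25 °C by limma's interaction test (−3.20, SE 0.32, adjusted p = 1.31e-06), and by −0.48 (adjusted p = 0.0120) with values below log2 4 set to 4. EXPB4, next to EXPB3, rose at both temperatures. It averaged 6.11 ± 0.20 in 40 °C 4H axes, against 1.14 ± 0.18 in 40 °C 0H axes, and 6.76 ± 0.33 in 25 °C 4H axes, against 1.11 ± 0.39 in 25 °C 0H axes (SD, n = 3). The difference of its changes was −0.67 (SE 0.30) and did not pass limma's test (adjusted p = 0.0652). It passed with the replicate number as a block (adjusted p = 0.0437), with array weights (adjusted p = 0.00318) and with values below log2 4 set to 4 (−0.64, adjusted p = 0.0144). It also passed without replicate 1 of 25 °C 0H (−0.89, adjusted p = 0.0126) or replicate 3 of 25 °C 4H (−0.86, adjusted p = 0.0218).

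IAA31, the annotated neighbour of IAA30 and also an Aux/IAA gene, rose at both temperatures. It averaged 6.47 ± 0.35 in 40 °C 4H axes, against 2.63 ± 0.40 in 40 °C 0H axes, and 7.29 ± 0.05 in 25 °C 4H axes, against 2.47 ± 0.27 in 25 °C 0H axes (SD, n = 3). Its change was 0.99 smaller at 40 °C (difference −0.99, SE 0.30, limma adjusted p = 0.00943), so most of the rise remained there. GH3.4, of the GH3 family, followed the members' pattern at low signal: 1.78 ± 0.20 in 40 °C 4H, 1.70 ± 0.11 in 40 °C 0H, 4.93 ± 0.52 in 25 °C 4H and 1.88 ± 0.16 in 25 °C 0H axes (SD, n = 3). The difference of its changes was −2.98 (SE 0.33, limma adjusted p = 3.72e-06), and −0.93 (adjusted p = 0.00595) with values below log2 4 set to 4.

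**Figure D2:**
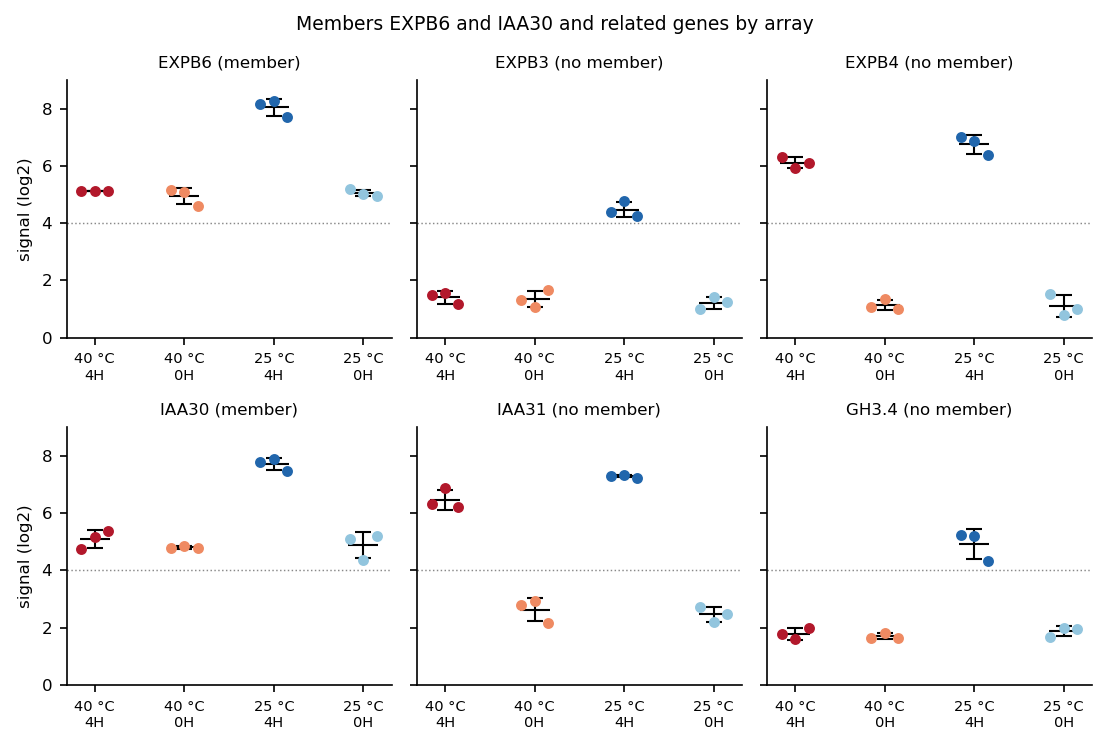
Log2 signal of EXPB6, EXPB3, EXPB4, IAA30, IAA31 and GH3.4 in each array, grouped as 40 °C 4H, 40 °C 0H, 25 °C 4H and 25 °C 0H, with points for arrays, bars for mean ± SD (n = 3) and a dotted line at the filter limit of log2 4. EXPB6, EXPB3, IAA30 and GH3.4 stand high in 25 °C 4H axes alone, whereas EXPB4 and IAA31 stand high in the 4H axes of both temperatures.

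The expansin and XTH list held 15 measured genes, EXPB6 among them. Of the 14 others, 7 rose and 4 fell at 40 °C by limma's adjusted p, where 87.2% of all tested probe sets changed, 41% up and 46.3% down; the number that rose was 3 with values below log2 4 set to 4. At 25 °C 11 rose and 2 fell, where 81.9% of all changed, 39.9% up and 42% down. The change at 40 °C was lower than that at 25 °C in 9 of the 14 and higher in 1, where 65% of all differed, 36.9% lower and 28.1% higher. The median difference was −1.50, against −0.12 over all tested, and −0.91 with values below log2 4 set to 4. The choice of list was made with earlier results of these data known, and nothing is read from it as a test.

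Within that list the loss took several forms. EXLA3, an expansin-like gene, averaged 3.68 ± 0.20 in 40 °C 4H axes, against 3.13 ± 0.16 in 40 °C 0H axes, and 5.68 ± 0.02 in 25 °C 4H axes, against 2.81 ± 0.52 in 25 °C 0H axes (SD, n = 3). Its difference of changes was −2.31 (SE 0.31, limma adjusted p = 1.55e-05), and −2.61 to −1.68 over the alternative settings. All its arrays outside 25 °C 4H lay below log2 4, so the size of this difference is not resolved. Some alpha-expansins, singled out after their values were seen, fell at 40 °C while they rose at 25 °C: EXP29 changed by −2.27 at 40 °C and by 1.59 at 25 °C, and EXP6 by −2.11 at 40 °C and by 0.95 at 25 °C. EXP2 averaged 3.72 ± 0.19 in 40 °C 4H axes, against 1.79 ± 0.66 in 40 °C 0H axes, and 6.63 ± 0.25 in 25 °C 4H axes, against 1.37 ± 0.29 in 25 °C 0H axes (SD, n = 3). All its 40 °C arrays lay below log2 4, so no rise is resolved there. XTH8 (OsXRT5) rose at both, by 3.56 at 40 °C and by 4.77 at 25 °C (difference −1.22, SE 0.25, limma adjusted p = 0.000637; −0.51, adjusted p = 0.0299, with values below log2 4 set to 4).

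The auxin list held 36 measured genes, of which IAA30 was the member. Of the 35 others, 16 rose and 13 fell at 40 °C, and 21 rose and 9 fell at 25 °C, beside 41% up and 46.3% down at 40 °C and 39.9% up and 42% down at 25 °C over all tested probe sets. The change at 40 °C was lower than that at 25 °C in 19 and higher in 7, beside 36.9% and 28.1% of all, with a median difference of −0.47, against −0.12 over all. GH3.2 rose at both temperatures, by 4.28 at 40 °C and by 6.53 at 25 °C, and the difference of −2.25 (SE 0.27) passed limma's test (adjusted p = 6.92e-06). LOC4334069, named both IAA1 and IAA13 in the annotation, averaged 3.82 ± 0.16 in 40 °C 4H axes, against 2.24 ± 0.19 in 40 °C 0H axes, and 5.37 ± 0.13 in 25 °C 4H axes, against 2.77 ± 0.35 in 25 °C 0H axes (SD, n = 3; difference −1.02, SE 0.26, limma adjusted p = 0.00352). All its 40 °C arrays also lay below log2 4, and with values below log2 4 set to 4 the difference was −1.37 (adjusted p = 2.40e-07). Against these, IAA12 rose by 4.57 at 40 °C and by 3.97 at 25 °C, and its difference of 0.59 (SE 0.30) did not pass (limma adjusted p = 0.0990). It passed with quantile normalization (0.76, adjusted p = 0.0416), with values below log2 4 set to 4 (0.46, adjusted p = 0.0440) and without replicate 3 of 25 °C 0H (0.78, adjusted p = 0.0277). The other 28 of the 30 lists held no member. Lists were matched on short names, which 16 of the 18 member genes lack, and 2 lists matched no measured gene, so nothing is read from this.

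**Figure D3:**
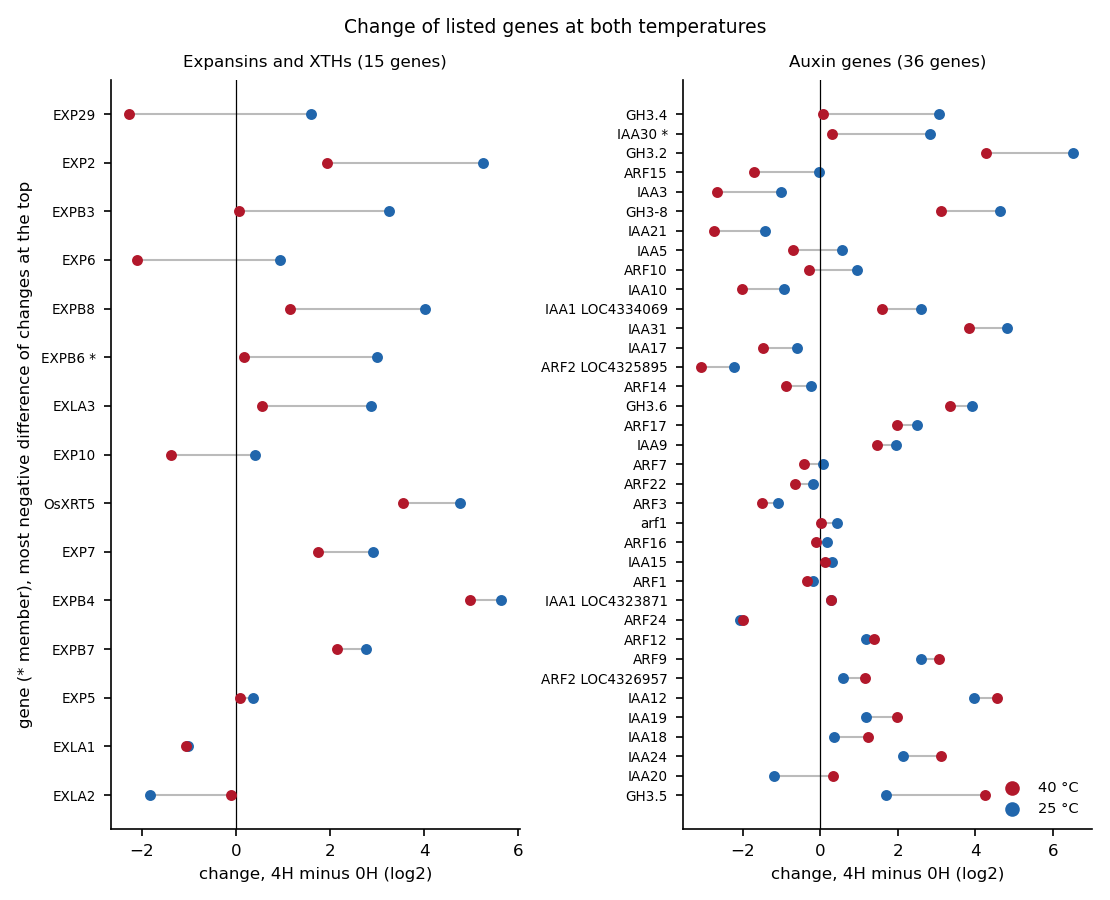
Change from 0H to 4H on the log2 scale at 40 °C (red) and at 25 °C (blue) for the 15 genes of the expansin and XTH list and the 36 genes of the auxin list, 1 probe set a gene, sorted by the change at 40 °C minus the change at 25 °C; asterisks mark the members EXPB6 and IAA30. In most expansin genes the red point lies left of the blue one, with EXLA2 the clearest exception.

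Several members lie near each other in the genome. In the gene order of RefSeq assembly ASM3414082v1, LOC4349325, LOC4349341 and EXPB6 fall within 22 consecutive annotated genes, 16 and 5 genes apart. LOC4349341 read 5.15, 4.92 and 5.29 in 40 °C 4H axes, against 5.08, 5.17 and 4.92 in 40 °C 0H axes. It read 8.85, 8.95 and 8.62 in 25 °C 4H axes, against 4.97, 5.22 and 5.06 in 25 °C 0H axes. The 9 arrays outside 25 °C 4H were interleaved, within 4.92 to 5.29, and the difference of the changes was −3.66 (SE 0.17). LOC4349325 is described below with the members of low signal. Both carry no short name in the tables used here, and no role is given for them.

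The stretch was carried on for 4 genes past EXPB6, to take in EXPB2, EXPB3, EXPB4 and LOC4349351, and it was singled out after the values were seen. It then held 26 genes, 21 of them with a probe set. Of the 18 that are no members 10 passed the signal filter, and their change at 40 °C was lower than that at 25 °C in 4 and higher in 3 by limma's test, beside 36.9% and 28.1% of all tested probe sets. Besides EXPB3, LOC4349331 came nearest to the members: 2.94 ± 0.26 in 40 °C 4H axes, against 1.34 ± 0.34 in 40 °C 0H axes, and 7.14 ± 0.18 in 25 °C 4H axes, against 1.74 ± 0.27 in 25 °C 0H axes (SD, n = 3; difference −3.80, SE 0.30, adjusted p = 1.83e-07). LOC4349327 rose at both temperatures, by 5.93 at 40 °C and by 7.70 at 25 °C (difference −1.77, SE 0.22, adjusted p = 8.78e-06). Other genes of the stretch moved the other way; LOC4349343 rose by 2.96 at 40 °C and by 1.11 at 25 °C. EXPB2 lay below the filter in every group. No other member genes lay within 20 genes of each other.

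**Figure D4:**
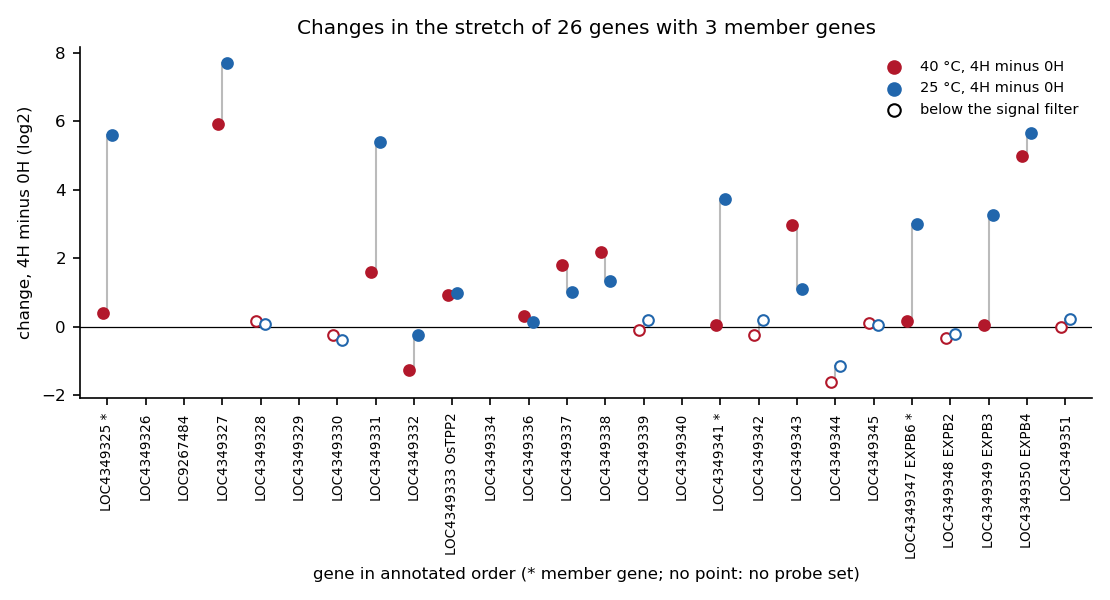
Change from 0H to 4H on the log2 scale at 40 °C (red) and at 25 °C (blue) for the 26 genes of the stretch in annotated order, with asterisks at member genes, open points below the signal filter and no point where no probe set was listed. The members LOC4349325, LOC4349341 and EXPB6, and also EXPB3, have red points at 0.06 to 0.41 and blue points at 2.99 to 5.61.

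Around all 18 member genes, the nearest measured gene on each side gave 36 neighbours, of which 25 passed the filter. The change at 40 °C was lower than that at 25 °C in 10 of them and higher in 7 by limma's test, with a median difference of −0.28. The neighbours as a set therefore showed shares near those over all tested probe sets (36.9% lower, 28.1% higher). Single neighbours stood further off: in 5 of the 36 the difference was −1 or lower, while the highest was 0.94, for LOC4340715. LOC4331713, next to the member gene LOC4331714, changed by −1.86 at 40 °C and by 2.02 at 25 °C, a difference of −3.88 (SE 0.25).

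In 7 members all 9 other arrays lay below log2 4, in 13 none did, and 6 lay between. LOC4341639 read 2.34, 2.40 and 2.17 in 40 °C 4H axes, against 2.26, 2.32 and 1.91 in 40 °C 0H axes. It read 7.24, 7.41 and 6.81 in 25 °C 4H axes, against 1.96, 1.77 and 1.70 in 25 °C 0H axes. The rise at 25 °C was 5.34 (SE 0.18) as deposited and at least 3.15 counted from log2 4, where the order of low signals is not resolved.

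LOC4349325, the first gene of the stretch, read 1.29, 1.26 and 0.97 in 40 °C 4H axes, against 0.61, 1.16 and 0.52 in 40 °C 0H axes. It read 6.69, 6.20 and 5.99 in 25 °C 4H axes, against 0.49, 0.75 and 0.81 in 25 °C 0H axes. Its lowest 25 °C 4H array stood 4.70 above the highest of the other 9, and its rise was at least 2.29 counted from log2 4. OsAffx.17329.1.S1_s_at, which has no gene listed, differed by −5.17 between the changes, with 6.63, 6.68 and 7.14 in 25 °C 4H axes and at most 2.06 in any other array. The remaining low members were LOC4331714, LOC4351246 by 1 of its probe sets, and LOC4327515.

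A second group was well measured in every array and rose from that level at 25 °C. LOC4342551 read 6.60, 6.84 and 6.43 in 40 °C 4H axes, against 7.65, 7.35 and 7.16 in 40 °C 0H axes. It read 9.91, 9.67 and 10.01 in 25 °C 4H axes, against 6.54, 6.82 and 6.75 in 25 °C 0H axes. At 40 °C every 4H array lay below every 0H array, a change of −0.76 (SE 0.14), the most negative among the members, while at 25 °C the change was 3.16 (SE 0.14). LOC4350662 read 5.46, 5.37 and 5.55 in 40 °C 4H axes, against 5.24, 5.32 and 5.23 in 40 °C 0H axes. It read 9.04, 9.03 and 8.47 in 25 °C 4H axes, against 4.85, 5.07 and 5.01 in 25 °C 0H axes. This gene kept a change of 0.19 (SE 0.13) at 40 °C, beside 3.87 (SE 0.13) at 25 °C, so that its 40 °C 4H arrays lay just above their 0H arrays.

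LOC4350164 lay at the filter limit and also lost its rise: it averaged 3.55 ± 0.31 in 40 °C 4H axes, against 3.74 ± 0.09 in 40 °C 0H axes, and 7.64 ± 0.31 in 25 °C 4H axes, against 3.95 ± 0.32 in 25 °C 0H axes (SD, n = 3). LOC4330160 had the smallest spread, with a pooled SD of 0.11 and changes of 0.28 (SE 0.11) at 40 °C and 2.92 (SE 0.11) at 25 °C. LOC4334032 changed by −0.19 at 40 °C and by 2.76 at 25 °C, and LOC4340588 by −0.24 at 40 °C and by 2.60 at 25 °C. Os.50825.1.S1_s_at, with no gene listed, averaged 7.80 ± 0.13 in 40 °C 4H axes, against 8.20 ± 0.09 in 40 °C 0H axes, and 10.77 ± 0.43 in 25 °C 4H axes, against 8.01 ± 0.06 in 25 °C 0H axes (SD, n = 3).

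**Figure D5:**
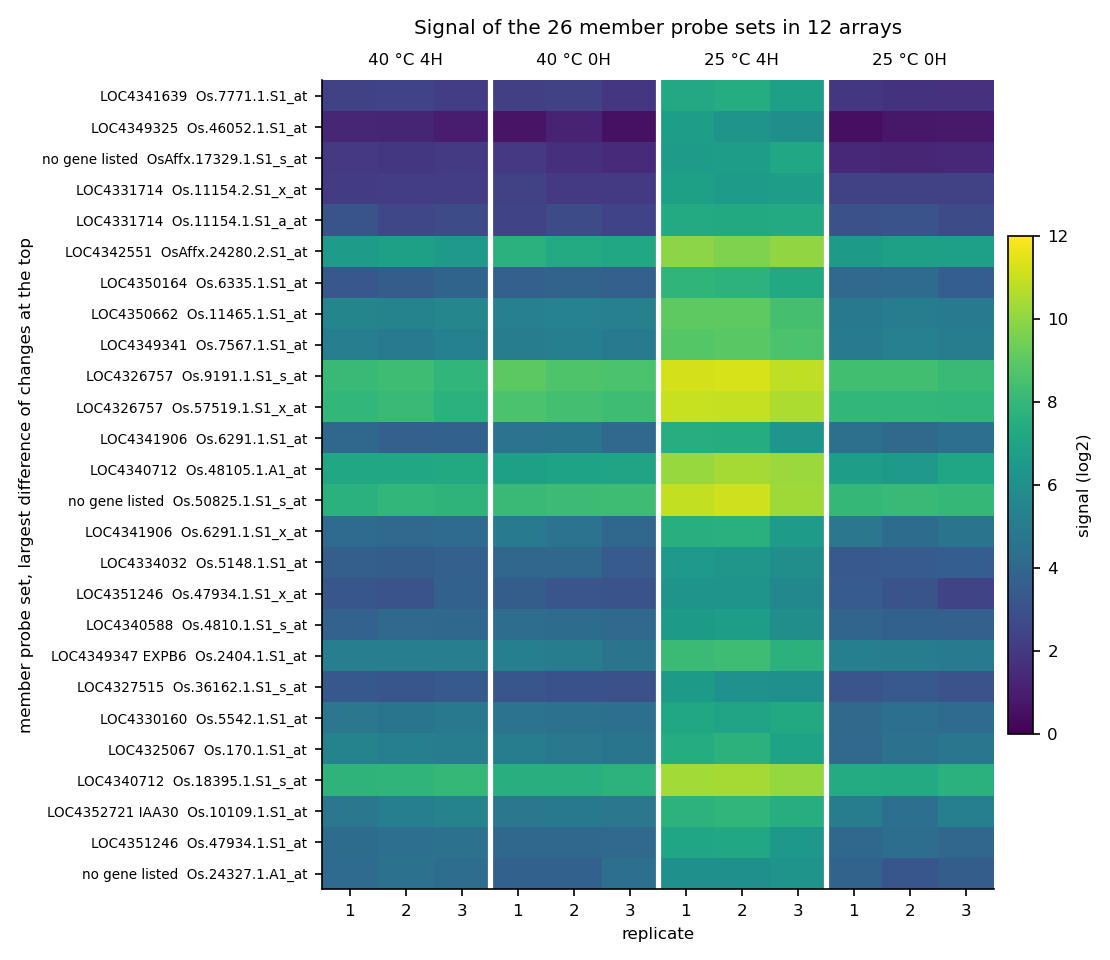
Log2 signal (colour, 0 to 12) of the 26 member probe sets in the 3 arrays each of 40 °C 4H, 40 °C 0H, 25 °C 4H and 25 °C 0H, with the most negative difference of changes in the top row. Only the 25 °C 4H columns brighten in each row, by at least 1.55 over the brightest of the other 9 arrays.

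All 3 arrays of 25 °C 4H lay above the 9 others in 26 of 26 members, by 1.55 to 4.70, where 14.6% of all tested probe sets showed that order; the rule favours it and nothing is read from it. At 40 °C the 4H arrays lay above all 0H arrays in 7 members, below them in 6 and overlapped them in 13, where over all tested probe sets 41.8% lay above and 47.6% below. Those above, all by less than 0.5 as the rule requires, were LOC4350662, LOC4340712 by both its probe sets, LOC4327515, LOC4330160, LOC4325067 and LOC4351246 by 1 of 2. Those below were LOC4342551, LOC4326757 by both its probe sets, LOC4341906 by 1 of 2, LOC4340588 and Os.50825.1.S1_s_at. The rule used these arrays, and for LOC4327515 both groups lay below log2 4, so nothing is read from these orders.

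The members differed less between temperatures at 0H than at 4H, and at 0H most were higher at 40 °C. The rule subtracts the 0H means of both temperatures, so the choice itself favours both traits. The values beside the other sets are a description, and nothing is read from them. At 0H the signal at 40 °C minus that at 25 °C lay between −0.39 and 0.68, with a median of 0.19, and 17 of 26 were higher at 40 °C (65.4%). Among the 875 probe sets that rose at 25 °C 44.6% were higher at 40 °C, with a median of −0.05, and among the 222 with like changes 49.5%, with a median of −0.01. All 6 of the 0H arrays lay below log2 4 in 7 of the 26 members (26.9%), in 45.4% of the 875 and in 41.9% of the 222. LOC4342551 had the largest 0H difference, at 0.68 (SE 0.14), followed by LOC4326757 at 0.49 and 0.44 (SE 0.13 for both its probe sets). The lowest was −0.39 (SE 0.17), for LOC4331714. At 4H the members' signal at 40 °C minus that at 25 °C lay between −5.12 and −1.78. By limma's adjusted p 74% of all tested probe sets differed between the temperatures at 4H, 30.5% higher and 43.5% lower at 40 °C, and 17.7% did at 0H, 5.99% higher and 11.7% lower; the rule used these means, and nothing is read from the shares.

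In 5 genes more than 1 probe set met the rule. Each had to keep the rule's limits in the same arrays, and whether they share probes was not examined. Their closeness is therefore a description and carries no test. The changes of LOC4331714 were 0.02 and 0.26 at 40 °C and 4.36 and 4.38 at 25 °C. Those of LOC4326757 were −0.65 and −0.53 at 40 °C and 2.81 and 2.88 at 25 °C. For LOC4341906 they were −0.63 and −0.35 at 40 °C and 2.75 and 2.69 at 25 °C. These pairs lay close together, and so did LOC4351246 (0.09 and 0.32 at 40 °C, 3.00 and 2.76 at 25 °C) and, with a wider gap at 25 °C, LOC4340712 (0.31 and 0.25 at 40 °C, 3.49 and 2.80 at 25 °C). Of the 26 probe sets 10 carry the suffix _s_at or _x_at, which the manufacturer gives to those that can match related transcripts, so for these the signal may not belong to 1 gene.

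Other probe sets of member genes did not all follow. A further probe set of LOC4327515, Os.36162.1.S1_at, read 1.26, 1.38 and 1.35 in 40 °C 4H axes, against 1.44, 1.15 and 1.08 in 40 °C 0H axes. It read 4.97, 4.52 and 4.02 in 25 °C 4H axes, against 1.47, 1.55 and 0.99 in 25 °C 0H axes. The pattern was that of the member, at lower signal (difference −3.06, SE 0.35, limma adjusted p = 4.30e-06), and did not pass with values below log2 4 set to 4 (−0.51, adjusted p = 0.0730). A further probe set of LOC4326757, Os.57519.1.A1_at, lay below log2 4 in all 12 arrays and was not tested. For LOC4325067 the probe sets went opposite ways. The member Os.170.1.S1_at averaged 5.20 ± 0.14 in 40 °C 4H axes, against 4.86 ± 0.20 in 40 °C 0H axes, and 7.37 ± 0.39 in 25 °C 4H axes, against 4.46 ± 0.30 in 25 °C 0H axes (SD, n = 3). Os.170.2.S1_at read 6.87, 6.90 and 7.06 in 40 °C 4H axes, against 4.93, 4.76 and 4.70 in 40 °C 0H axes. It read 4.05, 4.43 and 4.27 in 25 °C 4H axes, against 4.20, 3.97 and 4.40 in 25 °C 0H axes. It rose at 40 °C by 2.15 and by 0.06 at 25 °C, a difference of 2.09 (SE 0.19, limma adjusted p = 7.34e-07). For this gene the lost rise was thus seen in 1 probe set only, and which probe set reports the locus was not tested.

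The thresholds cut through a continuous range. The members nearest to the rise of 2.5 were Os.24327.1.A1_at, with no gene listed (2.57), LOC4340588 (2.60) and LOC4341906 (2.69 by its lower probe set), and just outside lay Os.26988.1.A1_at (2.45), LOC4338092 (2.43) and LOC4343353 (2.41). Nearest to the limit of 0.5 at 40 °C were LOC4349325 (0.41), Os.24327.1.A1_at (0.36) and LOC4325067 (0.34). Just outside it were C6-oxidase, also named DWARF and CYP85A1, an enzyme of brassinosteroid synthesis (0.55 at 40 °C and 3.62 at 25 °C), LOC9271390 (0.56) and LOC9271802 (0.56). At the level of 6 the members LOC4351246 (6.01), Os.24327.1.A1_at (6.09) and LOC4327515 (6.22) lay inside and OsAffx.26826.1.S1_at (5.99), LOC4338307 (5.99) and LOC4330459 (5.88) outside. Without the level, 97 probe sets met both limits on change, 71 of them below it.

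The choice was repeated without each replicate number, and the values of the arrays left out were then read, which the repeated choice had not used. Without replicate 1 the rule chose 28 probe sets, 25 of them members, and in the left-out arrays 22 of the 28 met all 3 limits. Without replicate 2 it chose 20, 18 of them members, and 18 of the 20 met all limits. Without replicate 3 it chose 34, 25 of them members, and 12 of the 34 did so. The median change in the left-out arrays was 0.07, 0.07 and 0.25 at 40 °C and 3.22, 3.12 and 2.73 at 25 °C for replicates 1, 2 and 3. In every probe set so chosen the change at 25 °C exceeded that at 40 °C in the left-out arrays. How many of all tested probe sets had that order in the same arrays was not counted. Over all tested probe sets and all 12 arrays the median difference was −0.12, and 36.9% were called lower at 40 °C by limma's interaction test. A call is a stricter measure than an order, so that share is no baseline for the left-out arrays. Replicates may be technical, so the left-out arrays are not shown to be independent, and these values carry no test. Replicate 3 of 25 °C 4H, which stood apart in its controls, was the lowest of its group in 19 of the 26 members and in 49.5% of the 875. Without that array 34 probe sets met the rule, all 26 members among them, and the members' median difference of changes was −3.39.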

How the data were processed

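Transcript signals of 12 Affymetrix Rice Genome Arrays in 4 groups of 3 were read from 1 table of 57381 probe sets. Deposited values are on the log2 scale (the base follows from their range) and came from GCRMA, run by the authors per the submitters' processing notes with no version given. GCRMA shrinks dim signals towards a common floor, so changes below log2 4 are less certain. Array medians lay between 1.49 and 1.59. Precision is limited by the number of arrays.

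The members and the gene lists were chosen with earlier results of these data known. After 123 control probe sets were left out, 17650 of 57258 lay above log2 4 in at least 3 arrays and were fitted with limma 3.58.1 in R 4.3.3 (group means of all 12 arrays, contrasts, eBayes with trend, 8 residual degrees of freedom, two-sided, Benjamini-Hochberg adjusted p under 0.05 over all of them). The fit was tested on simulated data. No p is given for a member. Changes are 4H minus 0H, and the interaction is the change at 40 °C minus that at 25 °C. Python 3.11.15 was used for the rule, the lists and the plots.

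Genes came from the platform's annotation (22436 probe sets with 1 gene, 95 with several) and RefSeq names of assembly ASM3414082v1, used for names and gene order only; 2460 of 17905 genes had a short name. The annotation holds no product names, so the 30 lists were matched on symbols and synonyms, and a list gene is represented by its tested probe set with the highest mean, or by the member. Named genes were, by rule, members with a short name, the 3 members inside and the 3 probe sets outside each threshold, and for each list holding members up to 2 others with a change of the same kind (a rise of at least 2.5 at 25 °C and the smallest change at 40 °C) and up to 2 that rose most at both temperatures. Members without a short name, further probe sets of member genes and the other genes named were chosen after their values were seen. Promoter and protein sequences were not used here, so the planned motif count was not run.

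The labels do not say that replicate numbers pair arrays. Correlations over probe sets of the deviations of same-numbered arrays were 0.229, 0.126 and 0.423 for 4H with 0H at 25 °C, all above the limit of 0.1; for the other comparisons at least 1 was below it. Between 4H and 0H at 25 °C, replicates 1 and 2 also correlated across numbers, at 0.192 and 0.205. Replicate 3 of either label ran from −0.344 to −0.218 against replicates 1 and 2 of the other, so pairing by number is not shown. The fits without pairing are reported.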

Additional observations from a re-analysis of the deposited data

Results flagged for a closer look

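The change at 40 °C differed from the change at 25 °C, by limma's interaction test, in the 11 probe sets listed here, none of them members. Of all tested probe sets 65% differed by this test, 36.9% lower and 28.1% higher. Several of the 11 were chosen for a change of this kind or after their values were seen, so nothing is read from their number or their passing. Among the expansin and XTH genes the difference was −3.20 for EXPB3, −2.31 for EXLA3 and −1.22 for XTH8 (OsXRT5). Among the auxin genes it was −2.98 for GH3.4, −2.25 for GH3.2, −1.02 for LOC4334069 (IAA1 or IAA13) and −0.99 for IAA31. In the stretch of genes around EXPB6 it was −3.80 for LOC4349331 and −1.77 for LOC4349327. For further probe sets of member genes it was −3.06 for Os.36162.1.S1_at of LOC4327515 and 2.09 for Os.170.2.S1_at of LOC4325067, the only positive value of the 11. With values below log2 4 set to 4, Os.36162.1.S1_at did not pass (−0.51, limma adjusted p = 0.0730).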

How the results depend on the processing

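The number of probe sets meeting the rule depended on its limits and on dim signals: 46 met it with values below log2 4 set to 4 (20 of the 26 members among them), 2 with a rise of at least 3 and a change of at most 0, and 101 with limits of 2 and 1; quantile normalization gave 27 (23 members) and group medians 28. Leaving out arrays gave 20 to 34. In all 12 settings that left out 1 array 22 of 26 members still met it, LOC4349325, LOC4340588, Os.47934.1.S1_x_at of LOC4351246 and Os.24327.1.A1_at being the exceptions. The members' median difference of changes was −2.82 with values below log2 4 set to 4 and −3.39 to −3.05 without single arrays. With the replicate number as a block (pairing) it was −3.17, and the counts of changed probe sets were 15506 at 40 °C, 14597 at 25 °C and 11734 for the interaction, within 1.5 times those reported; among the named results the block changed only the call of EXPB4 (adjusted p = 0.0437).

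Over all probe sets the filter at log2 6, which tests fewer, gave 10045 changed at 40 °C and 9525 at 25 °C. Between 40 °C and 25 °C at 0H 3129 changed, against 5558 with array weights and 2039 to 3842 without single arrays; the cause was not tested. Single-array ranges were 14615 to 15426 at 40 °C, 13677 to 14328 at 25 °C, 10495 to 11522 for the interaction and 12035 to 13238 between temperatures at 4H. No value under these alternatives reversed its direction. Of 390 alternative values of single members 13 moved by more than the replicate SD, all downward in size with the floor at log2 4 except 2 without replicate 3 of 25 °C 4H. Adjusted p over all alternatives ran from 0.00318 to 0.162 for EXPB4 and from 0.0277 to 0.247 for IAA12. Dim signals below log2 4 limit what 10 members, EXPB3 and GH3.4, among others, can show about size.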
